A study of Homo sapiens with 5 samples.

Results

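C4-2B cells after 72 h of isoflavone were compared with C4-2B cells after 6 h of isoflavone, with 1 array at each time. These are 2 of the 5 arrays of the series, and they were chosen by their labels. C4-2B is an established human prostate cancer line, a bone-metastatic derivative of LNCaP that makes prostate-specific antigen, and it was grown in medium with fetal bovine serum. The isoflavone was G2535, a soy mixture of mostly genistein and daidzein, given at 25 µM counted as genistein. The other 3 arrays are C4-2B cells after 48 h and after 6 h of 25 µM B-DIM, a formulated diindolylmethane that the study calls BR-DIM, and a control given the DMSO vehicle, with no time in culture stated in its label. The study asked which genes of prostate cancer cells these dietary agents alter, with bone remodelling in view. RNA was hybridised to Affymetrix human genome arrays, and the deposited values are linear MAS5 signals, 1 per probe set.

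Genistein is a plant flavonoid that binds estrogen receptors and inhibits tyrosine kinases. Luminal prostate cells carry a set of epithelial genes (E-cadherin, keratins, the factors EHF and GRHL2) and an androgen receptor program whose best known product is PSA, encoded by KLK3. Cells short of amino acids or under other stress make more of the factor ATF4, which raises genes for amino acid uptake and synthesis, and electrophiles release NRF2, which raises antioxidant genes.

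Each gene was represented by 1 probe set, and a signal under 97.1 was set to this floor, the median over all probe sets and arrays, before the ratio was taken. A ratio that used the floor is therefore set in part by it. A gene counted as measured if it lay above the floor at 72 h or at 6 h, and as higher or lower if the signals differed by at least 2-fold. With 1 array per time there is no spread between replicates, so no difference was tested, no error can be given, and each value describes these arrays. Time and array cannot be told apart.

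The isoflavone 6 h array stood apart in its epithelial genes, which bears on every ratio to it. The 12 prostate luminal markers summed to a signal of 16481 after 72 h and 2320.1 after 6 h of isoflavone, 3210.3 after 48 h and 15476 after 6 h of B-DIM, and 15319.6 in the control. All 12 lay above the floor after 72 h of isoflavone, against 7 after 6 h of isoflavone, and 7 after 48 h of B-DIM as well. By these markers alone, the label of a luminal prostate line held on 3 arrays and was weak on the isoflavone 6 h and B-DIM 48 h arrays. Mesenchymal genes were bright as well: in the control VIM, the vimentin gene, read 22024 and FN1, the fibronectin gene, 9145. The label was therefore not borne out by every marker. Prostate basal cell markers summed to 2767.5 at 72 h and 1749.7 at 6 h, with 2 of 7 above the floor at each time. For other cell types the summed signal was 1539.6 after 72 h and 2182 after 6 h for fibroblasts, 420.0 and 651 for macrophages and osteoclasts, 297 and 293 for lymphocytes, and 619 and 202 for osteoblasts, with 3 and 4, 2 and 3, 0 and 1, and 1 and 0 of their markers above the floor. Of the endothelial markers, 1 lay above the floor at 72 h and 0 at 6 h. Whether the low luminal signals come from fewer luminal-like cells or less RNA per cell cannot be told apart in bulk RNA. For this reason most groups below is also given with the control in place of the isoflavone 6 h array, which was a choice made once the values were known.

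After 72 h of isoflavone, 984 of 12658 measured genes (7.77%) were higher and 239 (1.89%) were lower than after 6 h. These shares of all genes are the ones to set beside the counts over 6 h of each gene list below. Over all 29429 measured probe sets, 1872 (6.36%) were higher and 766 (2.60%) lower. The median log2 ratio of all genes was 0.04, and the 25th and 75th percentiles lay at -0.30 and 0.44. The higher genes also reached farther: 142 genes were higher by at least 4-fold and 2 lower, 33 were higher by at least 8-fold and 0 lower, and 14 were higher by at least 16-fold. Of the 984 higher genes, 255 had a 6 h signal at or under the floor. Against the control, 4.80% of genes were higher and 2.07% lower after 72 h of isoflavone, and 1.18% were higher and 3.83% lower after 6 h.

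**Figure D1:**
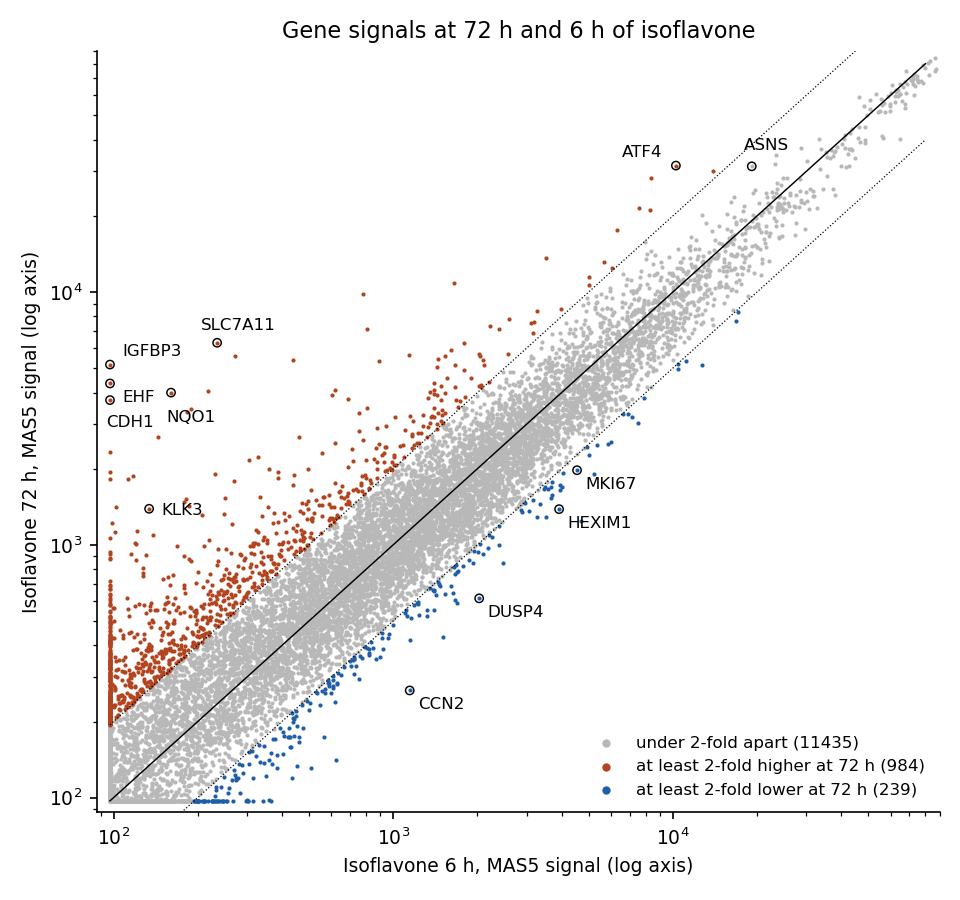
Each point is a measured gene, with its MAS5 signal after 72 h of isoflavone (vertical log axis) and after 6 h (horizontal log axis), both raised to the floor of 97.1; dotted lines mark 2-fold. The 984 higher genes reach farther from the diagonal than the 239 lower genes, and IGFBP3, EHF and CDH1 stand at the floor after 6 h.

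The 984 higher genes fell into several kinds when both isoflavone arrays were set against the control. For 288 genes, the 6 h signal was at least 2-fold under the control and the 72 h signal within 2-fold of it, so the 72 h array held the control level. For 304 genes the 6 h signal was within 2-fold of the control and the 72 h signal at least 2-fold above it. Another 32 were under the control at 6 h and above it at 72 h, and 357 stayed within 2-fold of the control at both times. CDH1, which encodes E-cadherin, is of the first kind, DDIT3, which encodes the stress factor CHOP, of the second, and SLC7A11, which encodes the cystine transporter subunit xCT, of those under it early and above it late. Of the 239 lower genes, 86 were within 2-fold of the control at 6 h and under it at 72 h, 27 were above it at 6 h and within 2-fold at 72 h, and 124 were within 2-fold at both times.

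The highest ratio of 72 h over 6 h was that of IGFBP3 (GRCh38.p14 chr7:45912245-45921272), which encodes a secreted binding protein of insulin-like growth factors. Its signal was 5164 after 72 h and 45.0 after 6 h of isoflavone, 140.4 after 48 h and 1478 after 6 h of B-DIM, and 825 in the control. Its log2 ratio of 72 h over 6 h was 5.73, taken against the floor, and it was 2.65 over the control. IGFBP3 was thus high after 72 h of isoflavone and low on the isoflavone 6 h and B-DIM 48 h arrays, with the control between. A further probe set of IGFBP3 had 1381 after 72 h and 39.7 after 6 h, a log2 ratio of 3.83.

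Epithelial and luminal genes came next among the high ratios. EHF, an ETS factor of epithelia, had signals of 4347 after 72 h and 91.8 after 6 h of isoflavone, 33.5 after 48 h and 2296 after 6 h of B-DIM, and 2775 in the control, a log2 ratio of 5.48. CDH1 (chr16:68737292-68835537) had 3736 after 72 h and 85.9 after 6 h of isoflavone, 99.5 after 48 h and 2114 after 6 h of B-DIM, and 2195 in the control, a log2 ratio of 5.27. Both lay near or under the floor after 6 h of isoflavone and after 48 h of B-DIM and well above it on the other 3 arrays. Of 23 measured epithelial keratins, factors and splicing regulators, 18 were higher and 1 lower, and the median log2 ratio was 2.04. GRHL2, a grainyhead factor that keeps epithelia, had 936 at 72 h against 85.9 at 6 h. ESRP1, an epithelial splicing regulator, had 886 against 10.4. KRT18, a keratin of simple epithelia, had 2679.9 against 461, and the control 2738. The exception was KRT7, another simple keratin, with 96.7 at 72 h, 211 at 6 h and 97.2 in the control.

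Most of these genes lay near the control after 72 h. Over the control the median of the same epithelial list was 0.47, with 5 members at least 2-fold higher after 72 h. Of the 18 members higher than at 6 h, 14 had a 6 h signal at least 2-fold under the control, and 11 were at least 2-fold lower after 48 h than after 6 h of B-DIM. CD24, a surface glycoprotein of epithelial and stem-like cells, did otherwise. Its signal was 5360.1 after 72 h and 439.9 after 6 h of isoflavone, 6640.2 after 48 h and 2543 after 6 h of B-DIM, and 1142 in the control. CD24 was thus over the control at the late time of each agent and also after 6 h of B-DIM, and under it after 6 h of isoflavone. All 6 of its probe sets had a log2 ratio of 2.05 or more.

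Of 25 measured junction and adhesion genes, 11 were higher (44%) and 0 lower, with a median of 0.90, which was 0.20 over the control. EPCAM, an epithelial adhesion molecule, had 1097 after 72 h against 138 after 6 h, and 614 in the control. CLDN7, a tight junction claudin, had 638 against 48.8, and 592 in the control. The desmosome gene DSP (3583 against 2431) and the tight junction scaffold TJP1 (3222 against 1804) differed by less than 2-fold. CTNNB1, which encodes beta-catenin, had 4669.7 after 72 h, 2877 after 6 h and 3667 in the control. The junction genes were therefore not all low at 6 h: DSP, TJP1 and CTNNB1 were within 2-fold of the control there.

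Mesenchymal genes were not lower at 72 h. Of 23 measured, 6 were higher (26.1%) and 0 lower, with a median of 0.27 both over 6 h and over the control. VIM, which encodes the mesenchymal filament vimentin, had 40167 after 72 h and 33275 after 6 h of isoflavone, 50009 after 48 h and 30013 after 6 h of B-DIM, and 22024 in the control, bright on every array. ZEB1, a repressor of CDH1, had 2973 against 2079, and SNAI2, another, 3551 against 4550.1. Dimmer ZEB1 probe sets above the floor went both ways, with log2 ratios of 1.31 and -0.86. FN1, which encodes fibronectin, was higher at 13580.3 against 3511, a log2 ratio of 1.95. On the probe sets used, the signals of VIM, ZEB1 and SNAI2 at both times thus differed by less than 2-fold, while CDH1 was well above the floor at 72 h and under it at 6 h.

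Genes of the androgen response were higher in part. KLK3 had signals of 1388 after 72 h and 134 after 6 h of isoflavone, 11.8 after 48 h and 3560.0 after 6 h of B-DIM, and 4219 in the control, a log2 ratio of 3.37 over 6 h and -1.60 over the control. Its 72 h signal was thus far above the 6 h array and still well under the control. A second KLK3 probe set read 1545 after 72 h, 269.5 after 6 h and 5096 in the control, and another one, dim on all arrays, 233 after 72 h and 194 after 6 h. KLK2, the closest relative of KLK3, had 124 after 72 h, 11.4 after 6 h and 707 in the control, so it was near or under the floor at both times. Of 22 measured androgen-induced genes, 6 were higher (27.3%) and 0 lower, with a median of 0.47 over 6 h and -0.27 over the control. FOLH1, which encodes the membrane antigen PSMA, had 617 after 72 h against 17.2 after 6 h. STEAP2, a metalloreductase of the prostate, had 5316 against 887, and 2505 in the control. FKBP5, a chaperone gene induced by androgen, differed little at 3125 against 2653, and so did ABCC4, a transporter, at 2007 against 1372. The same held for NDRG1, a stress-related gene (1787 against 1713), and CENPN, a centromere protein gene (2861 against 2924), so the androgen-induced list was low at 6 h in some members and not in others.

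**Figure D2:**
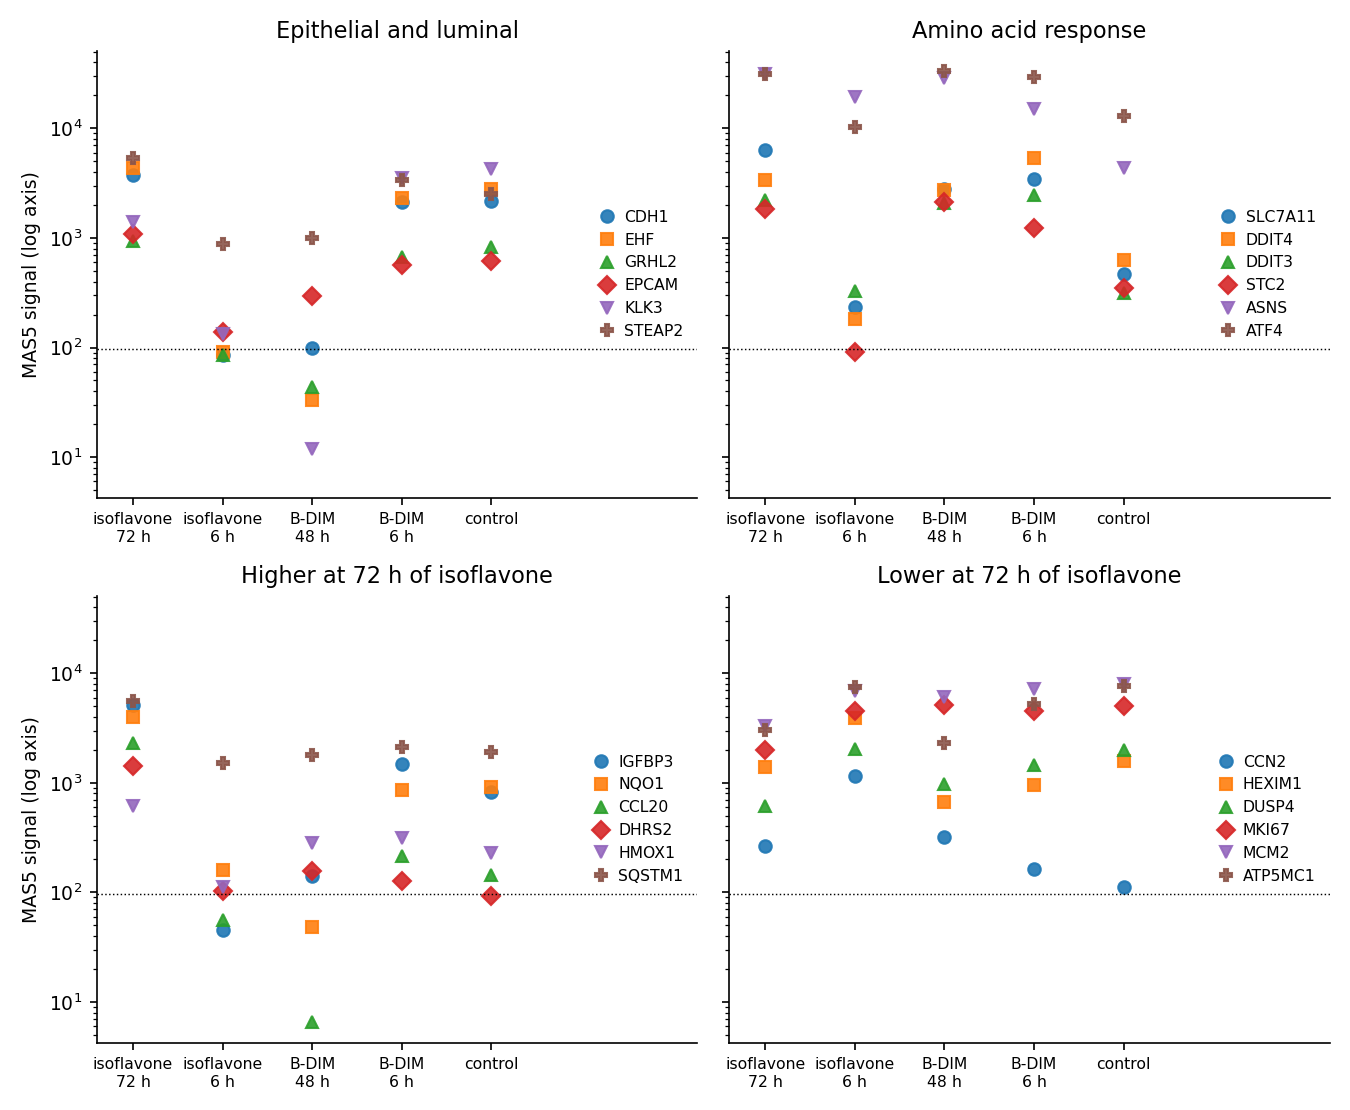
MAS5 signals (log axis) of 24 genes on the 5 arrays, 1 array per condition, with the floor of 97.1 dotted; each symbol is a gene. The epithelial and luminal genes dip on the isoflavone 6 h and B-DIM 48 h arrays, the amino acid response genes are high on all treated arrays but isoflavone 6 h (ASNS excepted), and CCN2 peaks at 6 h of isoflavone.

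The ATF4 and amino acid response was higher at 72 h over both isoflavone 6 h and the control. Of 34 measured genes, 19 were higher and 0 lower, with a median log2 ratio of 1.42, and 33 of 34 ratios were above 0. All 19 were also at least 2-fold over the control, and the median over the control was 1.39. At 6 h of isoflavone the list had stood near the control, with a median of 0.05, 3 members at least 2-fold over and 8 under it. After B-DIM, in contrast, 23 members were over the control at 48 h and 20 at 6 h, where 5.33% and 2.86% of all genes were, and the median of 48 h over 6 h was 0.10. Most of the list was thus over the control at both times of B-DIM and at the late time of isoflavone.

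Among amino acid transporters, SLC7A11 (chr4:138164097-138242349) had signals of 6297 after 72 h and 235 after 6 h of isoflavone, 2812 after 48 h and 3446 after 6 h of B-DIM, and 473 in the control, a log2 ratio of 4.75. SLC3A2, its heavy chain partner, had 1708 after 72 h and 658 after 6 h, and 729 in the control. SLC7A1, an arginine transporter, had 11446 against 4999.7, with 5038 in the control. Of these 3, SLC7A11 was under the control at 6 h and the others were level with it. Serine and cysteine synthesis genes varied: PSPH had 1482 against 179, PSAT1 17522 against 6305 and CTH 2155 against 719 (a log2 ratio of 0.62 on another probe set), but PHGDH, the first enzyme of serine synthesis, had 7914 against 10609, the one negative ratio of the list.

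The stress factors of the response were higher as well. ATF4 itself had signals of 31622 after 72 h and 10250.5 after 6 h of isoflavone, 33336 after 48 h and 29417 after 6 h of B-DIM, and 13046 in the control, a log2 ratio of 1.63. DDIT3, the gene of CHOP, had 2231 after 72 h against 327 after 6 h, and 315 in the control. TRIB3, a pseudokinase induced by ATF4 and CHOP, had 2167 against 305, and 793 in the control. DDIT4, an inhibitor of mTORC1, had 3347 against 182, and 629.7 in the control, and STC2, a secreted glycoprotein, 1828 against 91.9. GDF15, a stress cytokine, had 4051 after 72 h and 217 after 6 h of isoflavone, against 1031 after 48 h and 4695 after 6 h of B-DIM.

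The 3 members already at least 2-fold over the control at 6 h of isoflavone were ASNS, ATF3 and PHGDH. ASNS, asparagine synthetase, had signals of 31413 after 72 h and 19146 after 6 h of isoflavone, 28562 after 48 h and 14932 after 6 h of B-DIM, and 4353 in the control. Its log2 ratio of 72 h over 6 h was 0.71, within 2-fold, while it was 2.14 over the control at 6 h. ATF3, a stress-induced factor of the same family, had 6023 after 72 h and 3366 after 6 h, against 1134 in the control. PHGDH, whose ratio of 72 h over 6 h was -0.42, had 4758 in the control, a log2 ratio of 1.16 at 6 h and 0.73 at 72 h. ASNS and ATF3 were therefore at least 2-fold over the control at both times, whereas DDIT3, SLC7A11 and TRIB3 were over it by that much at 72 h and not at 6 h of isoflavone.

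Promoters of genes of this response were searched for TGATGNAA on either strand, the core of the element that ATF4 and CEBP factors bind together, a motif added after the data were seen. Of 29 measured list members with a promoter sequence, 6 (20.7%) held it between 250 bases before and 50 bases after the start, against 1.69% of 10333 measured genes and 3.67% of all 27305 promoters. It was in 3 of the 16 members (18.75%) that were higher at 72 h, so its share was not greater among them. Of the 759 higher genes with a promoter it was in 3.03%, and of the 194 lower genes in 0.516%. A match is a description of the letters and not a bound site. The promoters of ASNS and ATF3, high at both times, of CHAC1, higher than at 6 h by a log2 ratio of 1.88, and of AARS1, within 2-fold at 0.96, are shown for comparison (RefSeq, GRCh38.p14, 5′ to 3′ on the gene's strand, the motif or its reverse complement in capitals). They lie at chr7:97872359-97872658 (minus strand), chr1:212565157-212565456 (plus), chr15:40953221-40953520 (plus) and chr16:70289457-70289756 (minus).
ASNS: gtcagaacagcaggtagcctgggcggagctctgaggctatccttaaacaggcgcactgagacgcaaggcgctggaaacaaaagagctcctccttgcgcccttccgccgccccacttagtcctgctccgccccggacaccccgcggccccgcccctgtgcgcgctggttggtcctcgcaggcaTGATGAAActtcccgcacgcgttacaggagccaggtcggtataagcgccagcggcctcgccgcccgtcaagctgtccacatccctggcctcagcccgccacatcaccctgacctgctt
ATF3: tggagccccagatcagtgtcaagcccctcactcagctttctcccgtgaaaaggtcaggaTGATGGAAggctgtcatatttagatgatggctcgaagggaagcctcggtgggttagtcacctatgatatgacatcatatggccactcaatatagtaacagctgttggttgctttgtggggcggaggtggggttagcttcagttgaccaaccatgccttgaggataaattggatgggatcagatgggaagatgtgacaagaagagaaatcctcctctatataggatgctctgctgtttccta
CHAC1: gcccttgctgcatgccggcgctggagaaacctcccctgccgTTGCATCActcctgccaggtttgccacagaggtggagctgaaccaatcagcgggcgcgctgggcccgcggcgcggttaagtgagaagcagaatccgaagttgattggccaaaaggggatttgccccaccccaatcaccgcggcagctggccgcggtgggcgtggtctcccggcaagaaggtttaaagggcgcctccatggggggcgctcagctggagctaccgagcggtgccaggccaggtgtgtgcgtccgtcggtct
AARS1: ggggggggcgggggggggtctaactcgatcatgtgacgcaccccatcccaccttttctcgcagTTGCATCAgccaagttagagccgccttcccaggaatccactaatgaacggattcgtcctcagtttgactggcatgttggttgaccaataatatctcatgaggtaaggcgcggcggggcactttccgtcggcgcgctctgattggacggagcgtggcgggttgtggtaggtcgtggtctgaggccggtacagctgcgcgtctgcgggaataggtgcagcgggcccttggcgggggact
CHAC1, a glutathione-degrading enzyme, had signals of 491 after 72 h, 133.4 after 6 h and 68.5 in the control, and AARS1, alanyl-tRNA synthetase, 4079.6, 2094 and 2678. After 48 h and 6 h of B-DIM they had 451 and 849 (CHAC1) and 4676 and 5740.0 (AARS1), the 6 h values being the highest of the 5 arrays.

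The unfolded protein response, a neighbouring stress pathway of the endoplasmic reticulum, differed less as a list over 6 h than over the control. Of 25 measured genes, 3 were higher (12%, against 7.77% of all genes) and 0 lower, with a median of 0.31 over 6 h and 0.61 over the control. Of the ratios over 6 h, 20 were above 0. Over the control, 7 of 25 were at least 2-fold higher, where 4.80% of all genes were. XBP1, a factor of this response, had 3313 after 72 h, 756 after 6 h and 704 in the control. HERPUD1, an adaptor of protein degradation there, had 2904, 876 and 1122 in the same order. Folding genes such as PDIA3 (4984 against 4551) and SDF2L1 (936 against 1361) were within 2-fold. Of the heat shock list, 2 were higher and 1 lower of 23 (8.70% higher, against 7.77% of all genes), with HSPB1, a small heat shock protein, at 5631 against 1140.3 and a control of 6227, and DNAJB1, a cochaperone, at 1654 against 3938 (log2 -1.25, and -0.86 with its probe sets averaged).

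**Figure D3:**
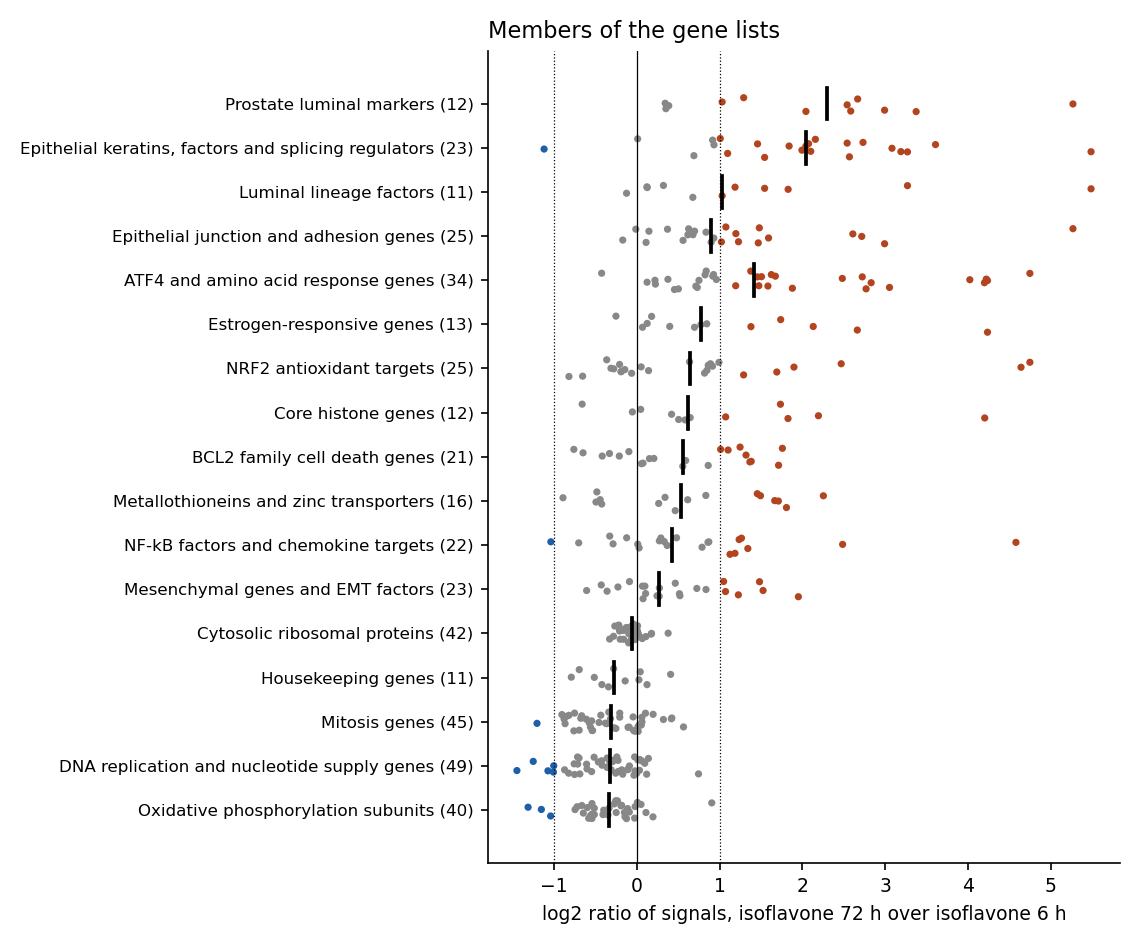
Each point is a measured gene of the list named at the left (number measured in brackets), placed by its log2 ratio of isoflavone 72 h over isoflavone 6 h; bars are list medians, and points past the dotted 2-fold lines are coloured. Epithelial, luminal and amino acid response lists lie to the right, and mitosis, replication and respiratory lists slightly to the left of 0.

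Antioxidant genes that NRF2 controls were higher in part. Of 25 measured, 6 were higher (24%) and 0 lower, with a median of 0.64 over 6 h and 0.21 over the control. Of the 6, 5 were also at least 2-fold over the control. NQO1, a quinone reductase, had signals of 3999.8 after 72 h and 160.5 after 6 h of isoflavone, 48.3 after 48 h and 866 after 6 h of B-DIM, and 919.6 in the control, a log2 ratio of 4.64. HMOX1, heme oxygenase, had 618 after 72 h against 112 after 6 h, and 229 in the control. AKR1C1, a ketosteroid reductase, had 2819 against 756, and 652 in the control, though its probe set may read relatives of the same family, and its log2 ratio of 1.90 was 0.09 on a dim probe set near the floor, the one left when those open to several transcripts were left out. NQO1, HMOX1 and AKR1C1 were thus highest of the 5 arrays after 72 h of isoflavone. Other targets differed by less than 2-fold, among them TXNRD1 (8876 against 4786) and, on the probe set used, GCLM (1315 against 845, while its 2 other probe sets gave log2 ratios of 1.25 and 1.02), and PRDX1 had the lower value at 72 h (24101 against 37884). SQSTM1, an autophagy receptor gene that NRF2 also raises, had 5592 against 1529.5, and 1927 in the control, while other probe sets of SQSTM1 gave log2 ratios of 0.55, 0.49 and -0.01.

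Metallothioneins, which bind zinc and copper, and zinc transporters were higher in 6 of 16 cases (37.5%) and lower in 0. The median was 0.54. MT2A had 6261 after 72 h, 1788 after 6 h and 2638 in the control, and MT1X 3213, 1012 and 1382. After 48 h of B-DIM MT2A read 734 and MT1X 301, the lowest values of the 5 arrays. The probe sets of this family may share targets.

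Of 22 measured NF-kB factors and chemokine targets, 7 were higher (31.8%) and 1 lower, with a median of 0.42. CCL20, a chemokine, had signals of 2319 after 72 h and 55.4 after 6 h of isoflavone, 6.5 after 48 h and 216 after 6 h of B-DIM, and 144 in the control, a log2 ratio of 4.58. CXCL8, which encodes interleukin-8, had 563 after 72 h against 100.5 after 6 h, and 50.3 in the control. NFKBIA, the feedback inhibitor of NF-kB, had 3749.9 against 1479, and 1967 in the control. CCL20, CXCL8 and NFKBIA were thus highest after 72 h of isoflavone. RELA and NFKB1, the factor subunits, differed by less than 2-fold (962 against 1172 and 1323 against 948). NFKBIB, another inhibitor, was lower at 240.3 against 493. Another of its probe sets gave a log2 ratio of -0.93, and a dim one near the floor went the other way at 0.25. LCN2, an iron-sequestering protein gene that NF-kB raises, had 1937 after 72 h, 71.7 after 6 h and 245 in the control.

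Cell cycle genes were slightly lower in their medians. Of 45 measured mitosis genes, 32 had a ratio below 0, with a median of -0.32, which was -0.39 over the control. Past 2-fold, 1 was lower and 0 higher, where 1.89% of all genes were lower. MKI67, the proliferation antigen Ki-67, was the one past 2-fold, with a log2 ratio of -1.20, or -0.95 with its probe sets averaged. Its signal was 1973 after 72 h and 4542 after 6 h of isoflavone, 5181 after 48 h and 4499.8 after 6 h of B-DIM, and 5072 in the control, lowest after 72 h of isoflavone and alike on the other 4 arrays. PLK1, a mitotic kinase, had 1509.5 after 72 h, 2715 after 6 h and 4174 in the control, and CDC20, an activator of mitotic exit, 3461, 6470.1 and 7466. Of 49 measured DNA replication and nucleotide supply genes, 5 were lower and 0 higher, with a median of -0.33, and 4 of the 5 were also at least 2-fold under the control. MCM2, MCM5 and MCM4, subunits of the replicative helicase, had 3283, 1686 and 1293 after 72 h against 6898, 4006 and 3522 after 6 h. RRM2, a subunit of ribonucleotide reductase, had 5189 against 10412, and 10417 in the control, but its other probe set read 8466 against 9453, a log2 ratio of -0.16. TYMS, thymidylate synthase, had 28182 against 25554, while other probe sets of TYMS gave log2 ratios of -0.37 and -0.52. Over 6 h, the medians of both lists were under that of all genes (0.04), as was that of 11 housekeeping genes (-0.28), none of which was past 2-fold. Over the control, the medians were -0.39 for mitosis, -0.23 for replication and -0.0035 for housekeeping genes. There 6 of 45 mitosis and 4 of 49 replication genes were at least 2-fold lower, where 2.07% of all genes were.

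The cell cycle homology region TTTGAA, a promoter element of genes that peak in mitosis, was found on either strand in 27 of 37 measured mitosis genes with a promoter sequence (73.0%), against 15.4% of all promoters, 9.71% of measured genes, 6.85% of the higher genes and 8.25% of the lower genes. It was in 18 of the 26 mitosis genes (69.2%) whose ratio was below 0. The promoters of MKI67 and PLK1 are printed to show where it lies, with the motif in capitals (RefSeq, GRCh38.p14, chr10:128126374-128126673 on the minus strand and chr16:23678639-23678938 on the plus strand).
MKI67: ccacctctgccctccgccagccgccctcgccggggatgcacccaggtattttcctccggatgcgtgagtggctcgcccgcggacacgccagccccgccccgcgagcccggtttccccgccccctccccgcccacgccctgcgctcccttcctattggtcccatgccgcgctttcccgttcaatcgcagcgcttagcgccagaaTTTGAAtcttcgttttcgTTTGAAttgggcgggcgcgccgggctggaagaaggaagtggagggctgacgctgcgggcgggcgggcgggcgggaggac
PLK1: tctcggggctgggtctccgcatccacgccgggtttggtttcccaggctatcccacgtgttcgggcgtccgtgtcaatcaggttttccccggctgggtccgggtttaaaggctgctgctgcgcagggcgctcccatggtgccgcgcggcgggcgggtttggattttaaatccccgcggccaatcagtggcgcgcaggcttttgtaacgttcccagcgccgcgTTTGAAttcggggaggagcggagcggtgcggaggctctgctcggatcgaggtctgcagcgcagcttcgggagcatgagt
MKI67 held it at 47 and 29 bases and PLK1 at 29 bases before the start. The E2F motifs TTTGGCGC or TTTCCCGC were in 20 of 43 replication genes (46.5%), 2.31% of all promoters, 3.63% of measured genes and 4.12% of the lower genes. CCAAT was in 97 of the 194 lower genes, 28.1% of the higher genes 36.9% of measured genes and 35.7% of all promoters. TATAAA was in 8.56% of the higher and 6.70% of the lower genes, against 5.50% of measured genes, TGACTCA (AP-1) in 5.80% and 2.58%, against 2.81%, GAANNTTC (heat shock element) in 5.93% and 3.61%, against 4.67%, and AGAACA (androgen receptor half-site) in 9.09% and 8.25%, against 8.80%. All were searched on both strands, none contains another, and their shares over all promoters were 11.95%, 4.92%, 6.87% and 14.9% in that order. The promoter of KLK3 (chr19:50854665-50854964, plus strand) holds AGAACA once, in capitals, on the strand of the gene.
KLK3: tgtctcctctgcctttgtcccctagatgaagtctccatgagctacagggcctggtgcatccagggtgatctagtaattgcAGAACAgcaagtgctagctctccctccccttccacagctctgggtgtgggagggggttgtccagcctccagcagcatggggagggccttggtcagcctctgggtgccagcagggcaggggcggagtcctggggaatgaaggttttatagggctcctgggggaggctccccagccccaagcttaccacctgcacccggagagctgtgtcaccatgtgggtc

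Of 19 measured genes of cyclins of G1, their kinases and inhibitors, 3 were higher and 0 lower (15.8% higher, against 7.77% of all genes), with a median of -0.02. The 3 were RB1, CDKN1A and CDKN1C. RB1, the retinoblastoma gene, had 1013 at 72 h against 314 at 6 h. Its other probe set read 91.9 against 269.8, a log2 ratio of -1.47. CDKN1C, which encodes the inhibitor p57, had 354 at 72 h against 162 at 6 h, a log2 ratio of 1.12. It was 0.95 with quantile normalization and 0.33 with its probe sets averaged. CDKN1A, which encodes p21, had 1753 after 72 h, 769 after 6 h and 1139 in the control. CDKN1B, which encodes p27, differed by less than 2-fold, at 2046 against 1448, with 1379 in the control. TP53INP1, a p53 target, had 2386 against 712, and 887 in the control. Of 23 measured p53 targets, 4 were higher (17.4%) and 0 lower, with a median of 0.21. Of 21 BCL2 family and other cell death genes, 8 were higher (38.1%) and 0 lower, with a median of 0.56 that was 0.02 over the control. BIK, a BH3-only protein gene, had 329 against 95.9, and 362 in the control, while HRK, another, had 384 against 117, and 164 in the control. BAX, a pore-forming member, had 841 against 1422.

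Respiratory genes were slightly lower as a group. Of 40 measured subunits of oxidative phosphorylation, 3 were lower and 0 higher, and 35 of 40 were below a ratio of 0, with a median of -0.34. That median over 6 h lay near the -0.28 of the 11 housekeeping genes. Over the control, the medians were -0.23 for the respiratory list and -0.0035 for the housekeeping genes. ATP5MC1, a ring subunit of ATP synthase, had 3035 after 72 h, 7529 after 6 h and 7574 in the control. After B-DIM it had 2328 at 48 h and 5255 at 6 h, so it was lower at the late time of each agent. Of 42 ribosomal protein genes and 29 proteasome genes, 0 were past 2-fold in either direction, with medians of -0.06 and -0.25.

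Of the lower genes, CCN2, which encodes the matrix protein CTGF, stood out by a peak at 6 h. Its signal was 265 after 72 h and 1145 after 6 h of isoflavone, 318 after 48 h and 163 after 6 h of B-DIM, and 113 in the control, a log2 ratio of -2.11 of 72 h over 6 h and 1.23 of 72 h over the control. HEXIM1, an inhibitor of the elongation factor P-TEFb, had 1384 after 72 h, 3918 after 6 h and 1569 in the control, also highest at 6 h. DUSP4, a phosphatase of MAP kinases, had 614, 2029 and 1999, and was thus lowest at 72 h and level with the control at 6 h. LANCL2, which binds abscisic acid, had 848, 2471 and 1638, and 657 and 1148 at 72 h and 6 h on its other probe set above the floor, which is within 2-fold (log2 -0.80). SGK1, a kinase gene that glucocorticoids raise, had 232 against 549. CCN2 and HEXIM1 were therefore early peaks, and DUSP4 was low at the late time. MATR3, a nuclear matrix protein gene, had the most negative ratio of the genes named by rule, -2.15, with 140.5 after 72 h and 624 after 6 h of isoflavone, but also only 160.0 after 6 h of B-DIM.

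Receptor genes of growth factors were among those low at 6 h. Of 21 measured receptor kinases and ligands, 5 were higher (23.8%) and 0 lower, with a median of 0.64 that was 0.11 over the control. ERBB3, the HER3 receptor, had 433 after 72 h, 16.2 after 6 h and 499 in the control. EGFR had 1003, 399.6 and 831, and MET, the receptor of hepatocyte growth factor, 988, 316 and 645. The 2 other MET probe sets above the floor were within 2-fold between the times (log2 ratios of 0.36 and 0.37), and ERBB3 was at 0.67 with its probe sets averaged. All 5 had a 6 h signal at least 2-fold under the control. VEGFA, the angiogenic factor that both hypoxia and ATF4 raise, differed from these with 3905 after 72 h, 602 after 6 h and 874 in the control.

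Genes that the study chose on these arrays for its account of bone and prostate cancer signaling are no independent evidence, and besides KLK3 and CDKN1B those given here are MITF, CCND1, AKT1, CREB1 and CDK13, all within 2-fold between the times. For PSA, p27, MITF, cyclin D, Akt and CREB the study also reported real-time PCR and Western blots, which are not part of these arrays. MITF, a factor of osteoclast genes, had 527 after 72 h, 425 after 6 h and 809 in the control, a log2 ratio of 0.31. CCND1, cyclin D1, had 111, 97.8 and 346, near the floor at both times. A brighter probe set of CCND1 read 876, 796 and 1264, nearer to its control. AKT1, a growth kinase, had 1267, 1224 and 2149. CREB1, a cAMP-responsive factor, had 395, 687 and 574, and its 7 probe sets went both ways, from -0.80 to 0.62. CDK13, a kinase of RNA polymerase II, had 1059, 995 and 1275. On these probe sets MITF, CCND1, AKT1 and CDK13 read under the control at both times. A second probe set of MITF had 455 at 72 h and 350.0 at 6 h against 315 in the control, and one of CDK13 had 1402 at 72 h and 778 at 6 h against 1169 in the control, so probe sets of MITF and CDK13 disagreed in their place relative to the control. Of 30 measured RANKL pathway genes, 2 were higher (6.67%, under the 7.77% of all genes) and 0 lower, with a median of 0.18. The 2 were PPP3CA and TRAF5: PPP3CA, a calcineurin subunit, had 7342 against 2224, and TRAF5, an adaptor, 1434 against 545.

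**Figure D4:**
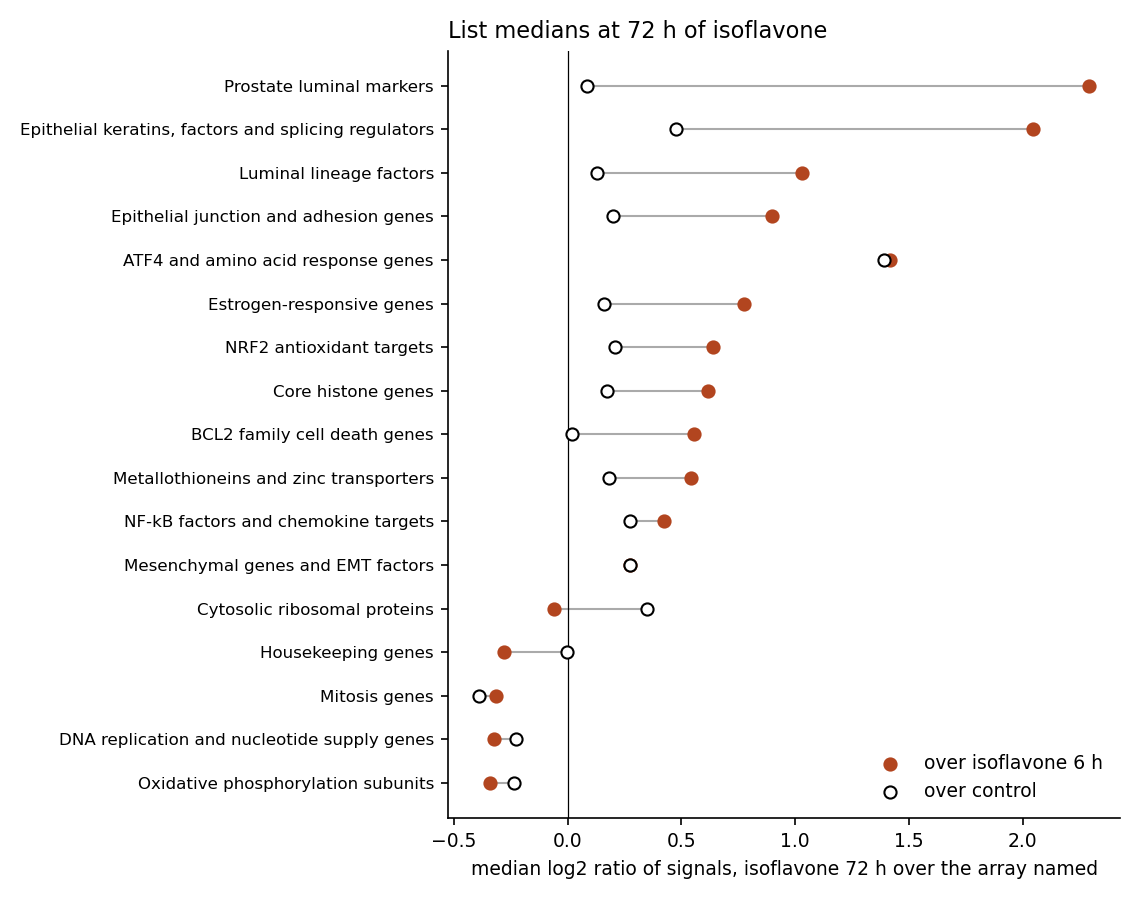
Median log2 ratio of each gene list after 72 h of isoflavone, over isoflavone 6 h (filled) and over the control (open), 1 array each. The luminal marker median is 2.29 over isoflavone 6 h and 0.08 over the control, while the ATF4 and amino acid response medians are 1.42 and 1.39.

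The late over early ratio of B-DIM, 48 h over 6 h, shares no array with that of isoflavone, though its late time is shorter. It had 245 of 13383 genes (1.83%) higher and 501 (3.74%) lower. Of the 984 genes higher late in isoflavone, 152 (15.4%) were lower late in B-DIM, which is 30.3% of the 501, and 61 (6.20%) were higher late in B-DIM, 24.9% of the 245. Of the 239 genes lower late in isoflavone, 24 (10.0%) were also lower in B-DIM and 3 (1.26%) higher. Among the prostate luminal markers, 9 of 12 were higher late in isoflavone, with a median of 2.29, and 10 of 12 lower late in B-DIM, with a median of -1.44. Without the genes lower on B-DIM 48 h than on B-DIM 6 h, 832 genes were higher and 215 lower late in isoflavone.

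**Figure D5:**
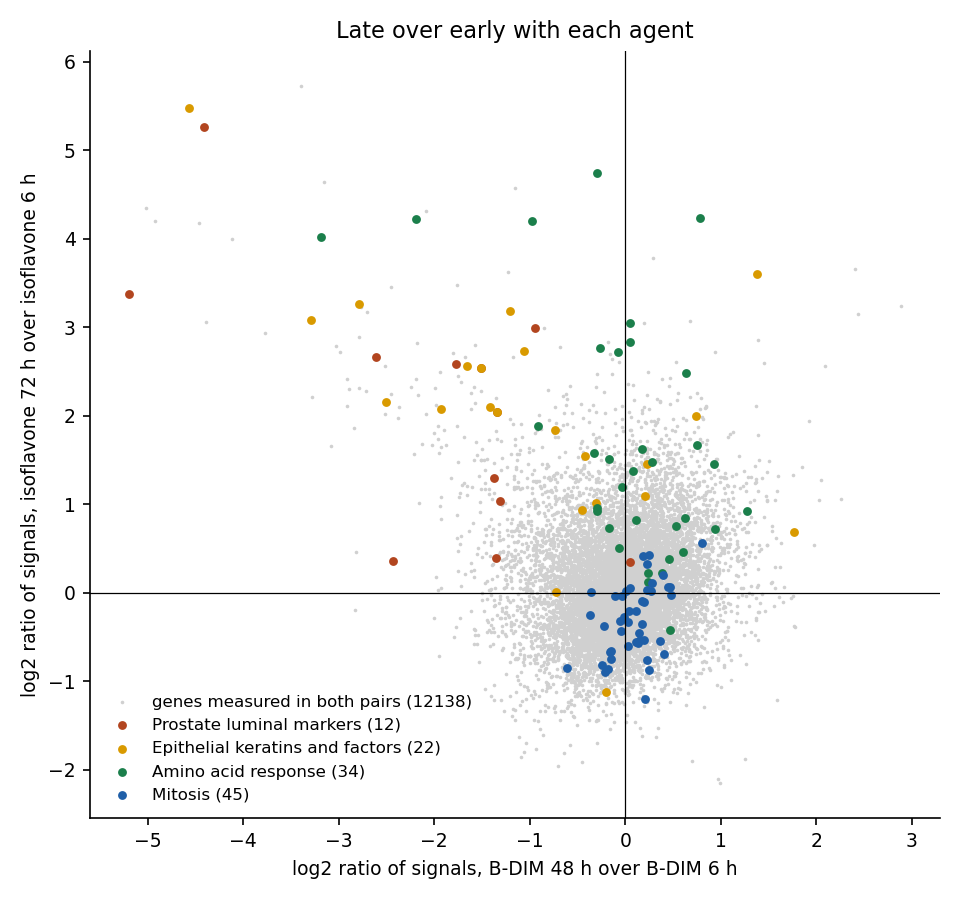
Each point is 1 of 12138 genes measured in both pairs, with the log2 ratio of isoflavone 72 h over 6 h (vertical) and of B-DIM 48 h over 6 h (horizontal). Luminal and epithelial genes lie at the upper left, amino acid response genes mostly above 0 vertically and near 0 horizontally.

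Some genes were high late with both agents. C11orf96, a gene of little-known function, had signals of 9849 after 72 h and 780.1 after 6 h of isoflavone, 6986 after 48 h and 1316 after 6 h of B-DIM, and 956 in the control, with a log2 ratio of 72 h over 6 h of 3.66, or 0.64 on another probe set, near or under the floor on most arrays. PTX3, a secreted pentraxin of innate immunity, had 921 after 72 h and 66.2 after 6 h of isoflavone, and 847 after 48 h and 114 after 6 h of B-DIM. SH3BGR had 7143 and 804, and 4559.9 and 844, in the same order, with 424 in the control. In C11orf96, PTX3 and SH3BGR both late signals were above both early signals and the control. TXNIP, an inhibitor of thioredoxin, had 5065 and 1433, and 1711 and 782, with 1864 in the control, so both of its B-DIM signals lay under the control.

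Other genes were higher late than early in isoflavone and not in B-DIM. DHRS2, DIO3 and CLGN were picked among genes within 1.5-fold between the B-DIM times, so their lack of a late B-DIM rise was set by that choice. DHRS2, a short-chain dehydrogenase gene, had signals of 1410.4 after 72 h and 102 after 6 h of isoflavone, 156 after 48 h and 127 after 6 h of B-DIM, and 92.6 in the control, a log2 ratio of 3.79. DIO3, which inactivates thyroid hormone, had 691 after 72 h and 12.3 after 6 h of isoflavone, 53.2 after 48 h and 110.3 after 6 h of B-DIM, and 56.4 in the control. DHRS2 and DIO3 stood near or under the floor on the other 4 arrays. CLGN, a chaperone gene of the endoplasmic reticulum, had 1906 after 72 h and 229.8 after 6 h, and 622 in the control. After 48 h and 6 h of B-DIM CLGN had 869 and 758, both above the control. MGST1, a microsomal glutathione transferase, had 5558 and 272, and 3599 in the control. It was low after 48 h of B-DIM at 135 but not after 6 h of B-DIM at 4371, so it followed the epithelial pattern. Its log2 ratio was 4.35, and other bright probe sets of MGST1 gave 4.18 and 4.28. A dim one, above the floor only after 72 h of isoflavone, gave 0.85.

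Estrogen-responsive genes are a group of interest for an agent that binds estrogen receptors. Of 13 measured, 5 were higher (38.5%) and 0 lower, with a median of 0.77 that was 0.16 over the control. The 5 were STC2, CA12, XBP1, AGR2 and MYB, and STC2, CA12 and XBP1 also belong to the ATF4, hypoxia and unfolded protein lists. CA12, a carbonic anhydrase gene, had 807 after 72 h, 127 after 6 h and 499 in the control, and AGR2, a secretory pathway protein gene, 324, 4.3 and 154. PGR, the progesterone receptor gene, had 609 against 339. ESR1, the estrogen receptor itself, was near or under the floor at both times and its probe sets went both ways, with 29.3 at 72 h and 115.5 at 6 h on one and 105.3 at 72 h and 8.7 at 6 h on another.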

How the data were processed

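Each of the 5 conditions was measured on 1 Affymetrix array of C4-2B RNA. The deposited values are intensity values, which the authors made with Affymetrix software as linear MAS5 signals scaled to a common level per array (trimmed means from 498.1 to 498.4); no source used here gives the version. Of 54613 probe sets, 41091 had 1 gene symbol in the platform annotation, 1801 had several and 11721 were not in it, so 19775 genes entered. A gene was represented by its brightest probe set, or by the one the study used. Signals under 97.1 were raised to it. Depth has no meaning for arrays, and their number limits the precision. Python 3.11.15, numpy 2.4.6, pandas 2.3.3, scipy 1.17.1 and matplotlib 3.10.9 were used, and the ratio script was tested on simulated data. Promoters came from RefSeq (GRCh38.p14).

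The comparison and the gene lists were chosen with earlier results of these data known. Genes were named by a rule: the 10 highest and 10 lowest ratios among genes of at least 4 times the floor whose probe sets share a sign, in each list the 4 members farthest from a ratio of 0, the genes of the study's array table that the annotation holds (others are not reported here), and the 5 highest and lowest among genes within 1.5-fold between the B-DIM times. AARS1, ABCC4, ASNS, ATF3, ATF4, BAX, C11orf96, CENPN, CHAC1, CTH, CTNNB1, DDIT3, DSP, EGFR, ESR1, FKBP5, GCLM, KRT18, KRT7, MYB, NDRG1, NFKB1, NFKBIB, PDIA3, PGR, PHGDH, PLK1, PRDX1, PSAT1, PSPH, PTX3, RELA, SDF2L1, SH3BGR, SLC3A2, SLC7A1, SNAI2, TJP1, TXNIP, TXNRD1, TYMS, VIM and ZEB1 were named after their values were seen. Alternatives changed the normalization, the floor, the probe set and the fold required, and the control array was put in place of isoflavone 6 h after the data were seen.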

Additional observations from a re-analysis of the deposited data

Results flagged for a closer look

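The 12 prostate luminal markers differed in opposite directions between the late and early times of the agents. Their median log2 ratio was 2.29 for isoflavone 72 h over isoflavone 6 h, with 9 of 12 higher and 0 lower, and -1.44 for B-DIM 48 h over B-DIM 6 h, with 0 higher and 10 lower. No marker that passed 2-fold in one pair passed it the same way in the other. Each condition has 1 array and the late times differ (72 h and 48 h), so this difference was not tested. Over the control, the median was 0.08 after 72 h of isoflavone, and 11 of the 12 markers were at least 2-fold under the control after 6 h of isoflavone.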

How the results depend on the processing

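The counts of 984 higher and 239 lower genes depended most on the floor and on the fold required. They were 1512 and 513 with no floor and 283 and 89 with a floor of 471.7, the 75th percentile. The lower genes numbered 138 when the floor was added to every signal as a pseudocount, and 143 when a gene's probe sets were averaged. A 1.5-fold rule gave 2376 and 1300 genes, and a 3-fold rule 295 and 17. With the control in place of isoflavone 6 h, which was chosen after seeing the data, 605 genes were higher. The other settings (quantile normalization, scaling by the median ratio, the olfactory receptor floor, the remaining choices of probe set, and leaving out genes lower on B-DIM 48 h) kept both counts within 1.5 times.

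With the control in place of isoflavone 6 h, 7 of the genes named in the text above that were past 2-fold changed sign: CCN2 (1.23), KLK3 (-1.60), ERBB3 (-0.20), MYB (-0.19), HSPB1 (-0.15), BIK (-0.14) and KRT18 (-0.031). Further genes that the naming rule picked but the text does not describe did so too. Among them were FOXA1 (-0.30), PLPP1 (-0.56), TYRO3 (-0.53) and IRF1 (-0.50). NFKBIB changed sign to 0.25 when probe sets that can match several transcripts were left out. EHF was 0.65 and CDH1 0.77 over the control, and MATR3 was -0.40 with the floor at the 75th percentile. Named genes under 2-fold also changed sign with the control in place, among them KLK2 (-2.51), CCND1 (-1.64, on its probe set near the floor), AKT1 (-0.76), MITF (-0.62) and PHGDH (0.73). No paired analysis was possible because each condition has 1 array. Signals near the floor limit what can be read of dim genes, and the precision is limited by 1 array per time.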
